A study of Homo sapiens with 6 samples.

Results

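The 5 CEACAM genes described here, CEACAM1, CEACAM5, CEACAM6, CEACAM7 and CEACAM19, were taken by name from a table of 78932 genes measured by RNA sequencing. They were picked because their levels differed between the groups compared, so that difference is described here and not tested. The 3 HIF-1β overexpression libraries came from A549, a human lung adenocarcinoma line, after a transfection, and the sources used here give neither its vector, promoter and duration nor whether the cells were 1 clone. The other 3 libraries are labelled wild-type A549, and all 6 were grown alike in RPMI medium with serum, with no other treatment named. HIF-1β, encoded by ARNT, is the DNA-binding partner of the oxygen-regulated HIF-α proteins and of the aryl hydrocarbon receptor.

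CEACAMs are cell-surface glycoproteins of the immunoglobulin superfamily that bind each other within and between cells through a membrane-distal, variable-like domain, and several serve as docking sites for bacteria. CEACAM1 spans the membrane and carries tyrosine motifs in its tail that recruit phosphatases, whereas CEACAM5 (the carcinoembryonic antigen measured in serum as a tumour marker), CEACAM6 and CEACAM7 are held by a glycosylphosphatidylinositol (GPI) anchor. CEACAM5 and CEACAM6 are made by many adenocarcinomas of the gut and lung, CEACAM7 is mainly a protein of the colon and pancreas, and CEACAM19 is a less studied membrane protein of the family.

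The libraries held 17192137 to 24454217 counts after rounding, and 16091 genes had enough of them to be tested. ARNT averaged 139 ± 8.30 CPM in overexpression libraries, against 43.7 ± 5.67 CPM in the libraries labelled wild type (CPM, counts scaled to a common library size after TMM scaling; SD, n = 3 each), which follows the labels. MTAP, which A549 is known to have lost, was at 0.400 ± 0.234 CPM in the overexpression libraries but at 78.1 ± 5.01 CPM in those labelled wild type, so the libraries labelled wild type go against their cell line label. TBXT, the brachyury gene, had 3 reads over the overexpression libraries, against 2076 ± 294 CPM in the libraries labelled wild type. The lung markers SFTPB, SFTPC and NKX2-1 had 1, 21 and 11 reads over the overexpression libraries and 0, 1 and 5 reads over those labelled wild type. The deposited table also has columns named for H460, another lung cancer line, which match no sample here and were not used, and whether column names were exchanged was not tested. HIF-1β and whatever else separates these 2 sets of libraries cannot be told apart for any gene below. Separate cultures are not named in the labels, so p-values measure the spread between libraries only, and that may be technical.

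The promoters of the family's classical members are shown first because these genes lie near each other, were high in the same libraries and have start regions that resemble each other. RefSeq promoter sequences (GRCh38.p14) matched 4 of the 5 genes, and CEACAM19 was not among them. The windows are the 250 bases before the RefSeq start of CEACAM5, chr19:41708376-41708625 (plus strand), CEACAM6, chr19:41755280-41755529 (plus strand), CEACAM7, chr19:41688271-41688520 (minus strand), and CEACAM1, chr19:42528482-42528731 (minus strand). Each is written 5′ to 3′ on the strand of its gene, and capitals mark the 6 bases that align with the CACGTG of CEACAM5.
CEACAM5: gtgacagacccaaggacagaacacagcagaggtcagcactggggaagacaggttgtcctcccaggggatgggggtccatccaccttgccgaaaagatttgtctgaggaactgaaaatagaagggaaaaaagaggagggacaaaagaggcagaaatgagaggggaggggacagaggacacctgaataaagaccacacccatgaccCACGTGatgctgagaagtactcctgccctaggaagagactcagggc
CEACAM6: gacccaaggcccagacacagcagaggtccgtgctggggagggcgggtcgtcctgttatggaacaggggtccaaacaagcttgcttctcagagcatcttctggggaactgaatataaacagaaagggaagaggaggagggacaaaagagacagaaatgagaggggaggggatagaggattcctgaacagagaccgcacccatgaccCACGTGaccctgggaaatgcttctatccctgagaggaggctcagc
CEACAM7: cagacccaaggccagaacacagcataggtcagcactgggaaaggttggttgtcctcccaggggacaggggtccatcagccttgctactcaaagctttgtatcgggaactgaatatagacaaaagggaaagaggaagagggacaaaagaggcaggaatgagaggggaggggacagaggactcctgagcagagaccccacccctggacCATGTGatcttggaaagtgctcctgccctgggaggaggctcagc
CEACAM1: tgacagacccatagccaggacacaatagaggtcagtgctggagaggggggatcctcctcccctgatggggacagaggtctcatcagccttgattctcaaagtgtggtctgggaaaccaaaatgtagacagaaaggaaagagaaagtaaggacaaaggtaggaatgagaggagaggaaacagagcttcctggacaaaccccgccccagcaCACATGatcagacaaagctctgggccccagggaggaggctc
CACGTG, the E-box letters that read the same on both strands, was found in the windows of CEACAM5 and CEACAM6, starting 46 and 45 bases before the RefSeq start. The aligned bases were CATGTG in CEACAM7 and CACATG in CEACAM1. Of 27305 promoter windows of this length, 6.49% held CACGTG. The E-box contains ACGTG, a core to which HIF dimers bind, on both strands, and this was its only match in either window, while 18.7% of all windows held ACGTG. The other HIF core searched on both strands, GCGTG, was in none of the 4 windows and in 31.9% of all. A GC box, GGGCGG on either strand, was found once in CEACAM6, 211 bases before the start, and once in CEACAM1, 52 bases before it (42.3% of all windows). TATAAA on either strand was found once, in CEACAM6, 139 bases before the start (11.1% of all windows). In the alignment CEACAM7 was 80.5% identical to CEACAM5 and 79.0% to CEACAM6, and CEACAM5 and CEACAM6 were 73.3% identical, whereas CEACAM1 was 59.9% to 66.8% identical to the others. These matches describe letters and say nothing of binding.

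The transcripts of these genes resemble each other too, which bears on how reads were shared between them. Of the 31-base words in GENCODE 29 transcripts, 23.1% of those of CEACAM5 also occurred in another gene, as did 14.4% of those of CEACAM6, 8.57% of CEACAM1, 7.07% of CEACAM19 and 1.53% of CEACAM7. The partner with most shared words was, for CEACAM5, ENSG00000267881, an overlapping gene on the same strand with 0 reads in all 6 libraries. CEACAM5 and CEACAM6 shared 187 words, or 5.57% and 6.19% of their own. As an example, the longest run shared by the coding parts of these 2 genes is 65 bases. It lies at chr19:41715698-41715762 in CEACAM5 and chr19:41762017-41762081 in CEACAM6 (GRCh38, plus strand, within 1 exon of each). Only a read that lies wholly within this run could not tell the 2 genes apart there.
Shared coding run: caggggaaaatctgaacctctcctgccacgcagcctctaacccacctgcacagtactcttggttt
For CEACAM1, CEACAM5, CEACAM6 and CEACAM7 all deposited estimates were nonetheless whole numbers (within 1e-06), and only CEACAM19 had estimates that were not, in 5 of 6 libraries.

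CEACAM6, an anchored adhesion protein whose excess is known to help epithelial cells survive without attachment, was the most abundant member. It had 1085, 1202 and 1262 reads in overexpression replicates 1, 2 and 3, against 2, 2 and 0 reads in replicates 1, 2 and 3 labelled wild type. In CPM these were 46.6, 55.0 and 54.4 in the overexpression libraries, against 0.121, 0.102 and 0 in those with the wild-type label. The 3 overexpression libraries lay close together, and the gene was all but absent from the others. The group means were 52.0 ± 4.68 CPM and 0.0746 ± 0.0653 CPM, a 697-fold difference (fitted log2 fold change 9.48, SE 0.26). With so few reads labelled wild type the size is loosely set: the ratio of summed counts was 778, with a 95% counting interval of 303 to 2856, and the fold of means was 465 without wild-type replicate 3 and 1016 without wild-type replicate 1. Of the tested genes, 0.547% had a fitted log2 fold change at least as high. CEACAM6 (ENSG00000086548) lies on chromosome 19, 41750977 to 41772208, plus strand (GENCODE 29, GRCh38).

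CEACAM5, its neighbour and the carcinoembryonic antigen gene (ENSG00000105388, chromosome 19, 41708585 to 41729798, plus strand), was seen in the overexpression libraries alone. It had 65, 112 and 84 reads in overexpression replicates 1, 2 and 3, or 2.79, 5.12 and 3.62 CPM, and 0 reads in every library labelled wild type. Over that group, 0 reads allow up to 0.0501 CPM, the level of 3 counts, and this floor covers counting error only. Against it the overexpression mean of 3.85 ± 1.18 CPM was at least 76.3-fold higher. Reads of CEACAM6 outnumbered those of CEACAM5 by 16.7, 10.7 and 15.0 to 1 in overexpression replicates 1, 2 and 3.

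CEACAM7, the third anchored gene (ENSG00000007306, chromosome 19, 41673307 to 41706976, minus strand), was low throughout. It had 14, 14 and 18 reads in overexpression replicates 1, 2 and 3, or 0.601, 0.640 and 0.776 CPM, and 0 reads in every library labelled wild type. The overexpression mean of 0.673 ± 0.0920 CPM was at least 13.4-fold above the same floor. Thus each of the 3 GPI-anchored genes had at least 1 library labelled wild type with no read, and 2 of them had none in that group.

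CEACAM1, the member with signalling motifs in its tail (ENSG00000079385, chromosome 19, 42507304 to 42561234, minus strand), had 88, 116 and 53 reads in overexpression replicates 1, 2 and 3, against 8, 1 and 6 reads in replicates 1, 2 and 3 labelled wild type. These were 3.78, 5.30 and 2.29 CPM in the overexpression libraries, against 0.485, 0.0512 and 0.251 CPM in those with the wild-type label. The groups did not overlap, and among the overexpression libraries CEACAM1 had the highest coefficient of variation of the 5 genes. The means of 3.79 ± 1.51 CPM and 0.263 ± 0.217 CPM differed 14.4-fold (fitted log2 fold change 3.87, SE 0.53), and the ratio of summed counts was 15.0 with a counting interval of 8.94 to 27.2. Of the tested genes, 7.87% had a fitted log2 fold change at least as high. The fold of means was 25.1 without wild-type replicate 1 and 10.3 without wild-type replicate 2. LIPE-AS1 overlaps CEACAM1 on the opposite strand, counting introns, with 281 reads over the overexpression libraries and 120 over those labelled wild type. The estimates of CEACAM1 were whole numbers, but no source used here gives the strand setting of the counting. Whether reads of the 2 genes mixed was not tested, so CEACAM1 counts are uncertain.

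CEACAM19 (ENSG00000186567, chromosome 19, 44662278 to 44684359, plus strand) was the member with the most reads in the libraries labelled wild type. Rounded counts were 213, 203 and 197 in overexpression replicates 1, 2 and 3, against 16, 15 and 27 in replicates 1, 2 and 3 labelled wild type. These were 9.15, 9.28 and 8.50 CPM in the overexpression libraries, against 0.971, 0.767 and 1.13 CPM in those with the wild-type label. Both groups were tight and far apart, with means of 8.98 ± 0.420 CPM and 0.956 ± 0.182 CPM, a 9.38-fold difference (fitted log2 fold change 3.21, SE 0.22) whose counting interval was 7.07 to 12.3 around a ratio of 9.26. CEACAM16-AS1 runs across the whole gene on the opposite strand, with 258 reads over the overexpression libraries and 9 over those labelled wild type, and PVR overlaps its start on the same strand. CEACAM19 counts are therefore uncertain in the same way. Of the tested genes, 9.33% had a fitted log2 fold change at least as high.

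**Figure D1:**
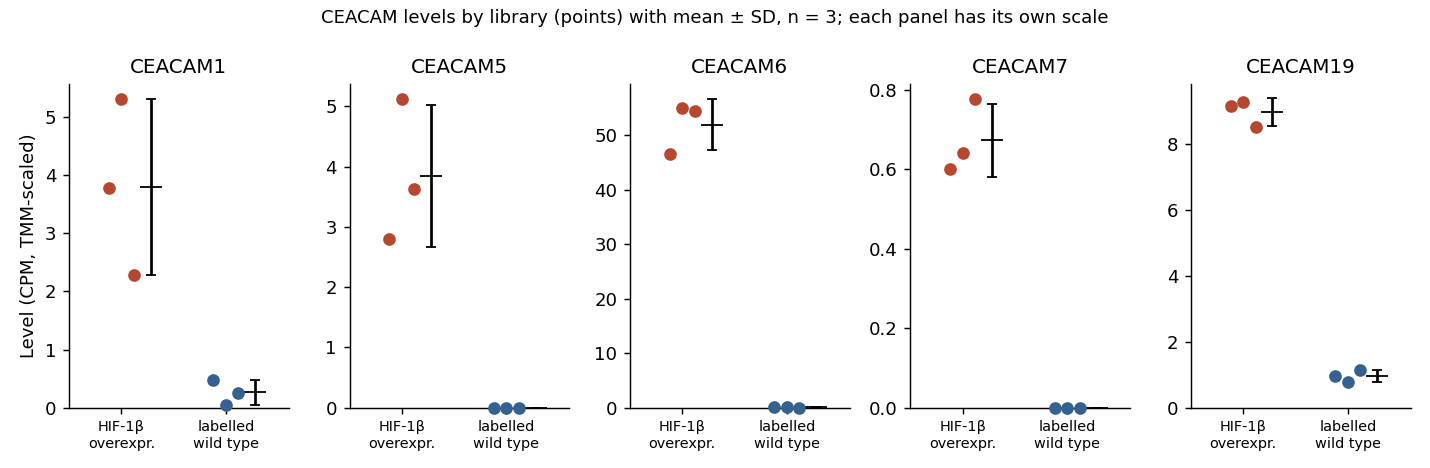
Levels of the 5 CEACAM genes in CPM (TMM-scaled, linear axes that start at 0 and differ between panels). Points are libraries, with overexpression left of labelled wild type, and the bar beside them is the mean ± SD (n = 3). Every overexpression library lies above every library labelled wild type in each panel, and CEACAM5 and CEACAM7 have no reads in the libraries labelled wild type.

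For all 5 genes the lowest overexpression library lay above the highest library labelled wild type. That holds for 39.9% of all tested genes and the reverse for 37.4%, and since the genes were picked by this contrast nothing is read from it. All 5 passed the filter on low counts, but CEACAM1, CEACAM5, CEACAM6 and CEACAM7 did so through the overexpression libraries alone, so they had to be high there to be fitted at all. No reads labelled wild type at all, as in CEACAM5 and CEACAM7, were seen in 369 tested genes (2.29%).

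Levels can be set side by side only per length of exon sequence. On that scale (CPM per kilobase of exon) the order in the overexpression libraries was CEACAM6 at 17.0 ± 1.53, CEACAM19 at 1.73 ± 0.0807, CEACAM5 at 1.15 ± 0.352, CEACAM1 at 0.686 ± 0.273 and CEACAM7 at 0.254 ± 0.0347 (SD, n = 3). CEACAM5, at 0.833 to 1.53, and CEACAM1, at 0.414 to 0.960, overlapped in range, so these neighbours in the order did not differ beyond their spread. The other neighbours did not overlap. In the libraries labelled wild type CEACAM19 led at 0.184 ± 0.0350, followed by CEACAM1 at 0.0475 ± 0.0394 and CEACAM6 at 0.0244 ± 0.0214, and the last 2 overlapped.

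**Figure D2:**
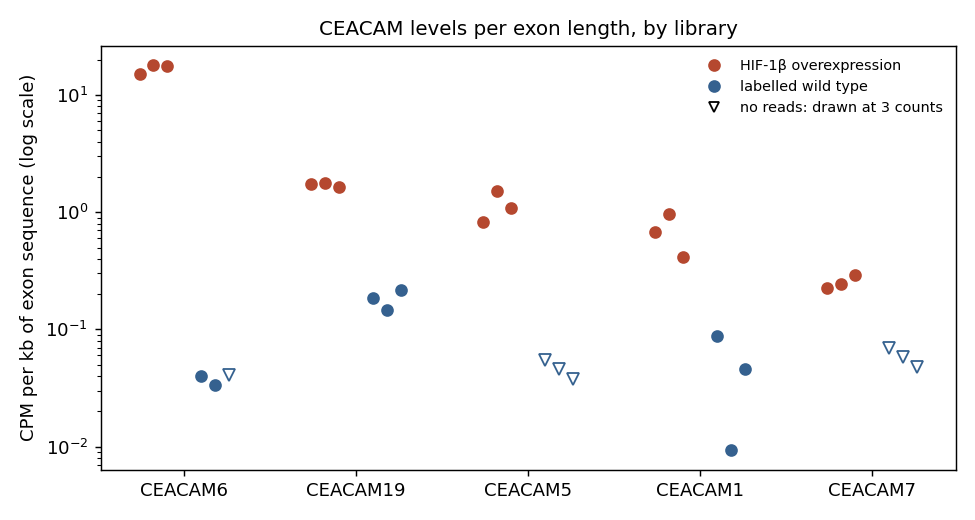
CPM per kilobase of exon sequence on a log axis for the 5 genes, ordered by their mean in the overexpression libraries. Filled points are libraries, overexpression left of labelled wild type, and open triangles mark libraries with no reads, drawn at the level that 3 counts would give in that library. CEACAM6 leads the overexpression libraries at 17.0 and CEACAM19 leads those labelled wild type at 0.184.

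The shares of the 5 genes in their summed reads follow from the counts by which they were chosen and are given as a description. CEACAM6 gave 74.1%, 73.0% and 78.2% of these reads in overexpression replicates 1, 2 and 3, from 1465 to 1647 reads. In replicates 1, 2 and 3 labelled wild type it gave 7.69%, 11.1% and 0% of 26, 18 and 33 reads. CEACAM19 gave 14.5%, 12.3% and 12.2% in the overexpression replicates, against 61.5%, 83.3% and 81.8% in those labelled wild type, where the exact 95% intervals were as wide as 40.6% to 79.8%. Intervals cover counting error only.

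Within the overexpression group the relative spread differed from member to member. CEACAM1 and CEACAM5 had coefficients of variation of 39.8% and 30.7%, where counting alone would give 11.2% and 10.9%. CEACAM6 varied by 9.01%, where counting would give 2.91%. CEACAM19 and CEACAM7 varied by 4.68% and 13.7%, below the 6.998% and 25.7% that counting would give. Replicate 2 was highest for CEACAM1, CEACAM5, CEACAM6 and CEACAM19, and replicate 3 for CEACAM7. Replicate 3 was lowest for CEACAM1 and CEACAM19, and replicate 1 for CEACAM5, CEACAM6 and CEACAM7. CEACAM1 made up 3.28% of the members' reads in replicate 3 (exact interval 2.47% to 4.27%) and 7.04% in replicate 2 (5.85% to 8.39%).

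The rest of the family was near silent. The other CEACAM symbols gave 20 gene IDs, pseudogenes included, and none had enough reads to be tested. CEACAM4, CEACAM8, CEACAM18 and CEACAM20 had 0 reads in all 6 libraries. CEACAM3, the granulocyte receptor for bacteria, had 1 read over the overexpression libraries, CEACAM16, a protein of the inner ear, had 2 and CEACAM21 had 1, and all 3 had 0 reads in those labelled wild type. At 0 reads over a group the level is at most 0.0439 CPM in the overexpression libraries, against 0.0501 CPM in those labelled wild type. The pregnancy-specific glycoprotein genes, the placental branch of the family on the same chromosome arm, were also too low to test, and the most reads any of them had were 5 over the overexpression libraries for PSG4 and 6 over those labelled wild type for PSG5.

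Most tested genes around the members were higher in the overexpression libraries as well. Across all tested genes 74.0% passed the edgeR quasi-likelihood test (Benjamini-Hochberg adjusted p under 0.05), 38.3% higher and 35.7% lower in the overexpression libraries, with a median log2 fold change of 0.034. Of the 18 nearest tested genes on either side of the members, 15 were higher and 3 did not pass, with a median log2 fold change of 1.30. Between CEACAM7 and CEACAM19, 35 of 55 other tested genes (63.6%) were higher and 6 lower, with a median of 0.78. On chromosome 19 as a whole 520 of 1041 (50.0%) were higher and 289 lower, with a median of 0.36.

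Beside CEACAM1, LIPE, which encodes hormone-sensitive lipase, was seen in the overexpression libraries alone, at 3.45 ± 0.465 CPM. With 0 reads in those labelled wild type, it was at least 68.7-fold higher (edgeR adjusted p = 2.3e-06). LIPE could pass the filter on low counts only through the overexpression libraries. CNFN, encoding the skin protein cornifelin, was at 7.11 ± 0.924 CPM against 0.677 ± 0.478 CPM, 10.5-fold higher (edgeR adjusted p = 1.1e-05). The nearest tested genes on either side of CEACAM5, CEACAM6 and CEACAM7 were the same 6, all higher. ERFL had 37 reads over the overexpression libraries and 2 over those labelled wild type, a ratio of summed counts of 16.2 with a 95% counting interval of 4.18 to 139, and PCAT19 was 5.39-fold higher from 42 and 7 reads. BCKDHA, a subunit gene of the branched-chain keto acid dehydrogenase, was 2.40-fold higher, DMAC2 2.52-fold, ARHGEF1 1.28-fold and RPS19, a ribosomal protein gene, 1.27-fold higher. Beside CEACAM19, the adhesion genes BCAM and NECTIN2 were 8.90-fold and 2.81-fold higher. PVR, which overlaps the start of CEACAM19, did not pass, at 152 ± 15.5 CPM against 155 ± 13.1 CPM. ETHE1, counted beside CEACAM1 although 945 kb from it, did not pass either, at 16.5 ± 1.46 CPM against 17.9 ± 2.52 CPM.

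**Figure D3:**
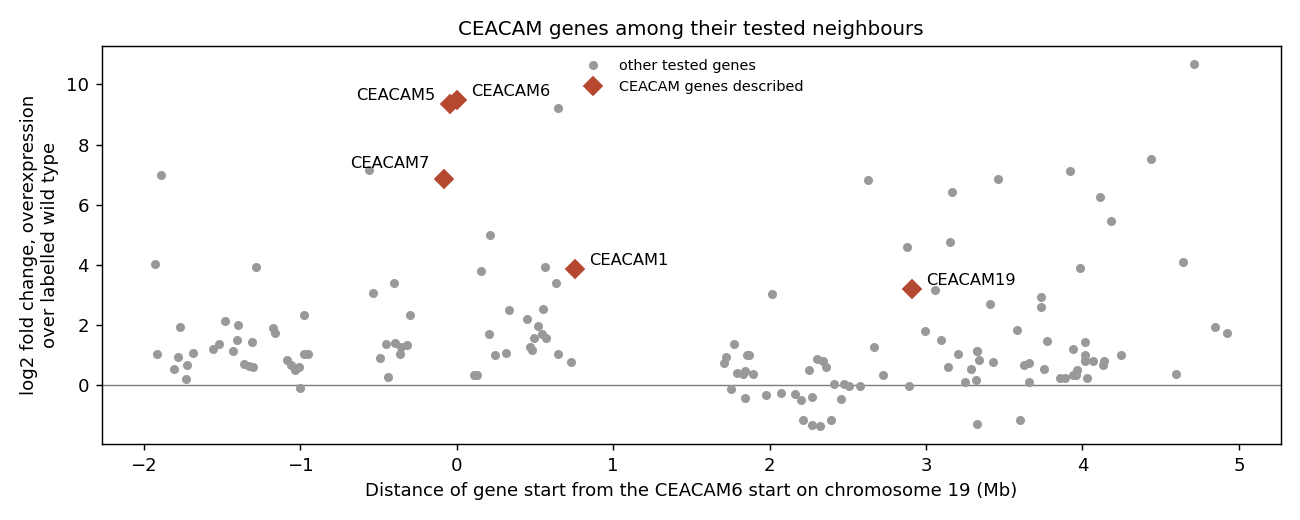
Fitted log2 fold change (overexpression over labelled wild type) of tested genes on chromosome 19 against the distance of their start from that of CEACAM6 in megabases, from 2 Mb before CEACAM7 to 2 Mb after CEACAM19. Diamonds are the 5 CEACAM genes and grey points all other tested genes. CEACAM5 and CEACAM6 stand at 9.36 and 9.48, above nearly all neighbours, and values of CEACAM5 and CEACAM7 depend on the prior count because the libraries labelled wild type have no reads.

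The genes with the profile most like each member were found from log2 CPM over the 6 libraries, each gene centred on its own mean, by the mean absolute difference. For CEACAM6 they were IGF2BP1, an RNA-binding protein gene, at 0.18, VCAN, which encodes the matrix proteoglycan versican, at 0.22, and GPX2, a glutathione peroxidase gene, at 0.23. For CEACAM5 they were SERPINA6 at 0.068, SERPINF1 at 0.085 and VSX1 at 0.12, each with 0 reads in the libraries labelled wild type. For CEACAM1 they were GCNT1 at 0.27, BMF at 0.28 and FBXO27 at 0.28. For CEACAM19 they were MYH10 at 0.049, APLP1 at 0.073 and MORC4 at 0.079. CEACAM7 is so low that the prior count compresses its profile, and ZNF726 at 0.035, COL4A1 at 0.057 and FGFR1 at 0.071 came nearest. Within 0.5 lay 56 genes for CEACAM6, 159 for CEACAM1, 335 for CEACAM5, 921 for CEACAM19 and 959 for CEACAM7, out of 14526 tested genes with a symbol. The profiles were centred but not scaled, so these numbers follow the size of each member's difference between the groups, by which the members were picked. The libraries fall into 2 sets, and nothing more is read from these likenesses.

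Genes that act with CEACAMs moved in both directions. Of 20 tested signalling partners 8 were higher, 5 lower and 7 did not pass, and their median log2 fold change was 0.18. The share that passed was 65.0%, against 74.0% of all tested genes, so the split does not set this list apart. Of the SRC-homology phosphatases that the CEACAM1 tail recruits, PTPN11 was 1.55-fold lower, at 269 ± 1.57 CPM against 419 ± 9.13 CPM (edgeR adjusted p = 3.1e-06). PTPN6, named after its value was seen, was at 29.4, 33.8 and 25.4 CPM in overexpression replicates 1, 2 and 3 and at 0.0607, 0.102 and 0.0838 CPM in replicates 1, 2 and 3 labelled wild type (359-fold higher, edgeR adjusted p = 3.8e-10). The kinase gene SRC was 1.81-fold higher and SHC1, an adaptor gene, 3.01-fold lower. CALM2, which encodes calmodulin, a protein that binds the CEACAM1 tail, was 1.53-fold higher. Among adhesion partners ITGB1, the integrin β1 gene, was 2.45-fold higher and TLN1, the talin gene, 1.59-fold higher, while FLNA, at 1751 ± 215 CPM against 1853 ± 211 CPM, and ITGAV did not pass. With library totals as the scaling ITGAV passed (edgeR adjusted p = 0.026, against 0.27). TNFRSF10B, a death receptor gene, was 2.10-fold lower.

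Genes that make and attach the GPI anchor of CEACAM5, CEACAM6 and CEACAM7 moved in both directions. All 30 were tested, 13 being higher, 9 lower and 8 not passing, with a median log2 fold change of -0.057. The share that passed, 73.3%, was near the 74.0% of all tested genes, so the split does not set this list apart. With library totals as the only scaling the split was 13 higher to 5 lower and the median 0.056. The folds that passed ran from 1.96-fold lower for PIGT to 5.60-fold higher for PIGZ, which adds a mannose and was low, at 2.57 ± 0.663 CPM against 0.459 ± 0.155 CPM; PIGZ was named after its value was seen. PIGO, which adds a phosphoethanolamine, was 1.88-fold higher at 106 ± 0.711 CPM against 56.7 ± 4.66 CPM. Subunits of the transamidase that joins anchor and protein went separate ways, with PIGS 1.43-fold and PIGU 1.40-fold higher, PIGT 1.96-fold and PIGK 1.498-fold lower, and GPAA1 not passing, at 98.4 ± 11.1 CPM against 103 ± 5.81 CPM. PIGX was 1.18-fold lower (edgeR adjusted p = 0.028), but its adjusted p was 0.22 with library totals as the scaling, 0.059 with DESeq2, 0.10 without overexpression replicate 3 and 0.070 without wild-type replicate 1.

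Of 16 transcription factor genes tied to CEACAM promoters or to HIF, ARNT among them, 9 were higher, 5 lower and 2 did not pass, with a median log2 fold change of 0.63. The share that passed was 87.5%, against 74.0% of all tested genes. It counts ARNT, the introduced gene, whose rise follows from the design. The E-box binding factors come first because of the letters in CEACAM5 and CEACAM6: USF1 did not pass, at 23.9 ± 0.742 CPM against 22.7 ± 0.499 CPM, and USF2, named after its value was seen, was 1.49-fold higher at 102 ± 3.50 CPM against 68.2 ± 3.74 CPM. Of the HIF-α partners of HIF-1β, EPAS1 was 2.53-fold and HIF1A 1.596-fold higher. SMAD3, which carries transforming growth factor β signals, was 3.04-fold higher, while SMAD2 was 1.51-fold, SMAD4 1.25-fold and TFAP2A 2.01-fold lower. SP1, a GC box factor, was 1.13-fold lower (edgeR adjusted p = 0.032), but its adjusted p was 0.37 with library totals as the scaling, 0.096 and 0.11 when overexpression replicates 1 and 3 were left out in turn, and 0.054 and 0.051 when wild-type replicates 2 and 3 were. HNF4A, a hepatic and intestinal factor named after its value was seen, was at 73.0 ± 11.1 CPM against 0.333 ± 0.293 CPM (219-fold higher, edgeR adjusted p = 1.2e-09).

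The members were high in libraries that also had more transcript of most glandular epithelial genes. Of 20 tested genes of that list 14 were higher, 4 lower and 2 did not pass, with a median log2 fold change of 4.04. The share that passed was 90.0%, against 74.0% of all tested genes. CDH1, which encodes E-cadherin, was at 228 ± 25.0 CPM against 0.672 ± 0.793 CPM (339-fold higher, edgeR adjusted p = 2.0e-09). CD24 was 33.7-fold, KRT8 2.66-fold and KRT18 2.58-fold higher. The list was not uniform: KRT19 was 418-fold lower at 0.497 ± 0.132 CPM against 208 ± 17.1 CPM (edgeR adjusted p = 1.2e-11), TSPAN8 21.9-fold, S100P 7.26-fold and AGR2 4.19-fold lower. MUC1, at 4.6 ± 0.910 CPM against 3.40 ± 0.415 CPM, did not pass, but did with library totals as the scaling (edgeR adjusted p = 0.048, against 0.10). In bulk RNA, more cells of a type and more RNA per cell cannot be told apart, and the part of these genes in the CEACAM difference was not tested.

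Other adhesion genes with immunoglobulin folds also differed in nearly every case, with 16 of 22 tested higher, 5 lower and 1, PVR, not passing, and a median log2 fold change of 0.94. ALCAM was 10.8-fold higher at 279 ± 46.7 CPM against 25.9 ± 1.43 CPM (edgeR adjusted p = 1.4e-09), and CADM1 1.51-fold higher. MCAM, the melanoma cell adhesion molecule gene, was 117-fold lower at 3.87 ± 1.02 CPM against 452 ± 39.6 CPM (edgeR adjusted p = 6.4e-11), L1CAM 10.7-fold, BSG 1.27-fold and NRCAM 1.19-fold lower, the last with an adjusted p of 0.070 when library totals were the scaling. The lists were chosen with earlier results of these libraries known, and their counts are to be read against the 74.0% of all tested genes that passed.

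**Figure D4:**
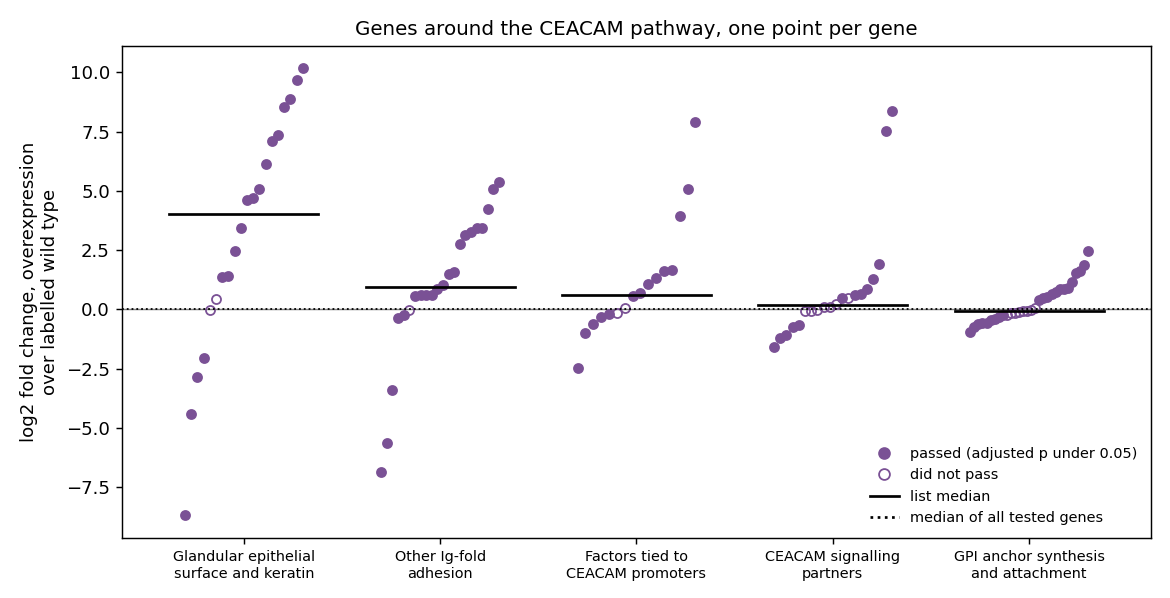
Fitted log2 fold change (overexpression over labelled wild type) of the tested genes of 5 lists, with one point per gene sorted within its list. Filled points passed the edgeR test at an adjusted p under 0.05, open points did not, solid lines are list medians and the dotted line is the median of all tested genes. The glandular epithelial list has the highest median, at 4.04, and the GPI anchor list the lowest, at -0.057.

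Markers of other cells that make CEACAM proteins were mostly at or near 0. Granulocytes carry CEACAM1, CEACAM3, CEACAM6 and CEACAM8. Their 14 markers summed to 6.17 to 6.996 CPM in the overexpression libraries and to 0.512 to 0.754 CPM in those labelled wild type. The 4 tested were all higher, as were 38.3% of all tested genes. ITGAM was at 2.85 CPM, FPR1 at 0.980 CPM and AZU1 at 0.704 CPM with 0 reads labelled wild type, and PRTN3 at 1.34 CPM against 6 reads. These 4 could pass the filter on low counts only through the overexpression libraries, so their direction was fixed and nothing is read from it. Of the 14, 6 were at 0 in all 6 libraries, MPO, FCGR3B, S100A8 and PTPRC among them. Of 12 trophoblast markers CGB3, CSH1, CSH2, ERVW-1, ERVFRD-1 and HSD3B1 were at 0 in all 6 libraries, and the sum of 151 to 239.6 CPM in the overexpression libraries against 38.2 to 47.8 CPM in the libraries labelled wild type was nearly all PAPPA, at 185 ± 47.5 CPM against 44.0 ± 5.14 CPM.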

How the data were processed

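RNA was sequenced in 3 HIF-1β overexpression libraries and 3 libraries labelled wild type, all labelled A549 and grouped by their labels. Per the labels, libraries were stranded and depleted of ribosomal RNA, although the molecule field names polyA RNA. The authors deposited expected counts per gene, credited to salmon by the name of the table. Per the submitters' processing notes, bcl2fastq 2.20 and GRCh38 were used, while the sources used here name no salmon version, annotation or strand setting. The table's 6 other columns of values, named for the H460 line, match no sample here and were left out, so an exchange of column names was not tested.

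The members and lists were chosen with earlier results of these data known. Expected counts as deposited (up to 9.51% not whole) were rounded. Genes were kept by filterByExpr at 10 counts and scaled by TMM (factors 1.03 to 1.05 in overexpression libraries, 0.948 to 0.977 in those labelled wild type), and CPM used the scaled total of tested genes. All other genes were tested with the edgeR 4.0.16 quasi-likelihood F test in R 4.3.3, without a replicate term, adjusted over all tested genes, with a threshold of 0.05. The members got a fold change and SE (its size over the square root of F) and no test. Bounds use 3 counts over a group. Of each list the genes named were up to 4 per direction and 2 not passing with the highest mean CPM, beside the genes marked as named after their values were seen. A gene that this rule named is not reported here. Symbols were found for 42179 of the 78932 IDs, and exon lengths and positions came from GENCODE 29.

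The batch label of each library holds its replicate number, so the pairing comes from that label alone. Correlations of deviations from group means were 0.0013, 0.096 and 0.022 for same-numbered libraries and -0.070 to 0.047 for others, which adds little to it. No 2 libraries of a group repeated each other (chi-square per degree of freedom 6.03 to 15.8). The fit was also run on simulated counts with 200 changed genes. In the real libraries 74.0% of 16091 tested genes passed, so that run cannot show how the fit performs on them. Alternatives were other scalings, filters, DESeq2 1.42.0, unrounded counts, a replicate block and leaving out each library.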

Additional observations from a re-analysis of the deposited data

How the results depend on the processing

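All 5 CEACAM genes were higher in the overexpression libraries under each alternative run. CEACAM1 and CEACAM19 had log2 fold changes of 3.39 to 4.50 and 3.07 to 3.35, within the spread between replicates. Leaving out each library in turn gave 8.78 to 9.96 for CEACAM6 and 6.72 to 6.92 for CEACAM7. The DESeq2 Wald test gave 8.70 for CEACAM5 and 6.19 for CEACAM7, against 9.36 and 6.86 in edgeR, and the cause was not tested. At 1 CPM in 3 libraries CEACAM7 was left out of the fit. With the replicate number as a block the members' values were 3.81 (CEACAM1), 9.38 (CEACAM5), 9.49 (CEACAM6), 6.88 (CEACAM7) and 3.22 (CEACAM19), and the block moved no list's count of calls. The lists' counts of calls stayed within 1.5 times, at 13 to 17 for signalling partners, 18 to 22 for GPI anchor genes, 13 or 14 for transcription factors, 15 to 19 for glandular genes and 20 or 21 for other adhesion genes. Scaling by library totals moved the median over all tested genes to 0.15 on the log2 scale, against 0.034. Depth limits CEACAM7 and all values labelled wild type, which rest on few reads.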
